A study of Rattus norvegicus with 9 samples.

Results

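Rat fetal ventricle at embryonic day 18 was compared with the left ventricle of sham-operated adult rats, 3 RNA-sequencing libraries against 3, out of 9 libraries in the series. All animals were Sprague-Dawley rats. The members were chosen by label alone: the fetal libraries carry the developmental stage and are numbered in their titles as litters 1 to 3, and the sham libraries were made from left ventricle of adults operated on without aortic constriction. The remaining 3 libraries, from adult left ventricle under transverse aortic constriction (TAC), entered the fit for the spread between replicates and are given beside a few results. The sources used here give neither the adults' age, nor whether a fetal library pools the hearts of a litter, nor whether each adult library is a separate animal. Trizol served for the fetal and a Qiagen column kit for the adult RNA. Age, part of the heart (ventricle or left ventricle) and RNA isolation therefore cannot be told apart in any result below.

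Late in gestation the rat heart still grows by division of its muscle cells, works at low oxygen and burns mainly glucose and lactate. After birth the muscle cells leave the cell cycle and enlarge, fatty acids become the main fuel, mitochondria fill the cell, and protein isoforms of contraction, conduction and ion transport are exchanged for adult ones. Thyroid hormone, oxygen and the change of diet are the known signals of this transition.

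Values are FPKM (fragments per kilobase of transcript and library size) summed over the isoforms of a locus and rescaled between libraries, and each series of 3 values is in the order of replicates 1 to 3. Differences are fetal minus sham on the scale log2(value + 1), with an adjusted p (Benjamini-Hochberg over all loci tested) below 0.05 as the threshold. A locus or transcript was tested if it reached 1 in at least 3 of the 9 libraries. Some reached it only in the 3 fetal libraries, among them Hif3a, Plagl1, Depdc1, Cdc6, Mybl2, Igf2bp1, Bmp5, Bmp7, Bmp10, Hand1 and Sox11. These could only come out higher, so their p-values do not count as support for the direction. They drop out of testing when a fetal library is left out, which lowers counts of rises there. Other loci reached 1 in no fetal library, among them Inha, Ces3, Ucp3, Gda, Xdh, Myom3, Myot, Adra1d and Ankrd23. These passed the filter through adult libraries alone, so their p-values do not count as support for the direction either. "Rose" and "fell" below mean higher or lower in the fetal ventricle past that threshold, and a size after "rose by" or "fell by" is such a log2 difference. Implied depth lay between 17.1 and 32.5 times 1e6 fragments in the 6 libraries compared. Replicate 1 of each group differs from the others in its shortest assembled feature, of 43 nt against 63 nt, and the cause was not tested. Fetal replicate 2 holds single loci far above its partners: Sox17 stood at 3.75, 32503 and 4.43 in the fetal libraries, Atp5a1 at 2079, 145239 and 1978, and the cardiac actin gene Actc1 at 14273, 137685 and 19209.6. Of 4 cardiomyocyte markers found by symbol, Mb (myoglobin), Des (desmin), Actc1 and Nppa, the lowest value in any fetal library was that of Des, at 629.9, 553 and 893, and all 4 are abundant in every library. Many heart genes, among them Myh6, Myh7 and Ttn, carry no symbol in the deposited tables and are not analysed here.

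Regulatory sequence was set beside 2 gene groups in which most members moved one way, those of cell division and those of antigen presentation and interferon response. Promoters were taken from RefSeq on the build GRCr8, as the 250 bases before each start site, and 15 motifs were searched on both strands. The motifs described here were picked after all 15 had been counted. In dividing cells, genes of mitosis are known to be held by a complex that reads the letters TTTGAA. The factor NF-Y, often found at the same promoters, reads a CCAAT box. Genes of DNA replication are known for E2F sites, searched as 4 strings, of which TTTGGCGC is marked below. The 4 mitotic promoters shown were picked because both of the first motifs lie within 100 bases of the start. Capitals mark them, or their reverse complements where they are read on the other strand.
Prc1: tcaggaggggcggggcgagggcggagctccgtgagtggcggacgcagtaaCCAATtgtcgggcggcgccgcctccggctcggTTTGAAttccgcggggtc
Cdc2: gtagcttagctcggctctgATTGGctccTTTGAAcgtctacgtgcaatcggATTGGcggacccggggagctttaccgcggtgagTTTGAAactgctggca
Cks2: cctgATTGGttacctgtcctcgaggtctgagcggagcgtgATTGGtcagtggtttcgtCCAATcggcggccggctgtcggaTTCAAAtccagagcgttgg
Cdc20: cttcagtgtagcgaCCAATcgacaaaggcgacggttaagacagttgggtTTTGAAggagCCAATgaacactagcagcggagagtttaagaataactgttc
They lie at chr1:143659381-143659480 on the plus strand (Prc1), chr20:19265193-19265292 on the plus strand (Cdc2, named Cdk1 in RefSeq), chr17:13727520-13727619 on the minus strand (Cks2) and chr5:137255800-137255899 on the minus strand (Cdc20). Each is written 5′ to 3′ in the direction of its gene and ends at the base before the start site.

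Among 46 mitosis genes with a RefSeq promoter, of 57 tested, 20 held TTTGAA (43.5%), against 15.2% of all 19005 promoters. CCAAT was held by 33 of them (71.7%), against 35.5% of all. Among 37 promoters of replication and repair genes, of 46 tested, TTTGAA was held by 4 (10.8%) and CCAAT by 21 (56.8%). The letters TTTGGCGC were held by 4 of these 37 (10.8%) and by 3 of the 46 mitosis promoters (6.52%), against 0.531% of all. Of the other E2F strings, TTTCCCGC was held by 3 replication promoters (8.11%) against 1.10% of all. The letters TTCCCGCC were held by 2 (5.41%) against 2.15%, and TTTGGCGG by 0 against 0.526%. The letters TATAAA were held by 1 of the 46 mitosis promoters (2.17%), against 12.3% of all. Next are the replication promoters of Gins1, where the searched letters overlap their own reverse as one palindrome, and Mcm6, with TTTGGCGC and CCAAT of either strand in capitals.
Gins1: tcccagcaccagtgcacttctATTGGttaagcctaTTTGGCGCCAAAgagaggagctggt
Mcm6: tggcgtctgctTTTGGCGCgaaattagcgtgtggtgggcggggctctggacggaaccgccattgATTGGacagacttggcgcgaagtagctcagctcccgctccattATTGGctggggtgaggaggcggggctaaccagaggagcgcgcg
They lie at chr3:160184860-160184919 on the plus strand (Gins1) and chr13:42404353-42404502 on the minus strand (Mcm6). A match describes these letters in this window and is neither a shown binding site nor a cause.

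Genes induced by interferon are known for a pair of TTTC repeats, searched as TTTC, any 2 bases and TTTC again, or the reverse. The promoters of Irf7, Gbp2, Tap2 and Ifit3, all lower in fetal ventricle, carry it in capitals.
Irf7: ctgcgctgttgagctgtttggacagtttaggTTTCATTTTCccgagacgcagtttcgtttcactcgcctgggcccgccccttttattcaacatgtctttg
Gbp2: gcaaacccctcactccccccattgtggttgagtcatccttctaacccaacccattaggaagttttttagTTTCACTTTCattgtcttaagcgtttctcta
Tap2: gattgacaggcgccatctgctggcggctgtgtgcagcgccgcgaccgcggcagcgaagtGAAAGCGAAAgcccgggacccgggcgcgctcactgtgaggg
Ifit3: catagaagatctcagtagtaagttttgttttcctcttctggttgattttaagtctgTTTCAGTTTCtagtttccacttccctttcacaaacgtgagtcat
They lie at chr1:205800024-205800123 on the minus strand (Irf7), chr2:234005627-234005726 on the plus strand (Gbp2), chr20:4652297-4652396 on the minus strand (Tap2) and chr1:241527226-241527325 on the plus strand (Ifit3). Of 27 histocompatibility and interferon-induced genes with a promoter, of 34 tested, 13 held the motif (48.1%), against 3.23% of all promoters. Among mitosis genes 2 of 46 held it (4.35%). The letters TCAAGGTCA, read by estrogen-related receptors, were found in 0 of 22 promoters of fatty acid genes and 0 of 41 of oxidative phosphorylation genes, against 0.305% of all, so this exact string is not in these windows.

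Between fetal and sham ventricle 6421 of 14139 loci tested were called (45.4%): 3161 were higher in fetal (22.4%) and 3260 lower (23.1%). The median difference over all tested loci was 0.04. Scaling to the upper quartile moved that median by 0.176, to 0.218, and the split to 4010 higher and 2698 lower, and scaling to equal totals moved it by 0.133, to 0.176, and the split to 3171 and 2490, so small differences depend on the scaling. A difference of at least 2-fold was passed by 2043 of the higher and 2192 of the lower loci, and one of at least 16-fold by 91 and 110. Of the called loci 4196 have a symbol.

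The plot of calls by gene list gives the share of each list on either side. Division, imprinted growth genes and the cytoskeleton stood on the fetal side, and immune, fatty acid, amino acid and hormone receptor genes on the adult side. Glycolysis, the mitochondrial carriers and the BMP family were divided between both directions in shares not far from those over all loci. Cytosolic ribosomal proteins were called less often than loci at large, at 8.2% higher and 1.6% lower.

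**Figure D1:**
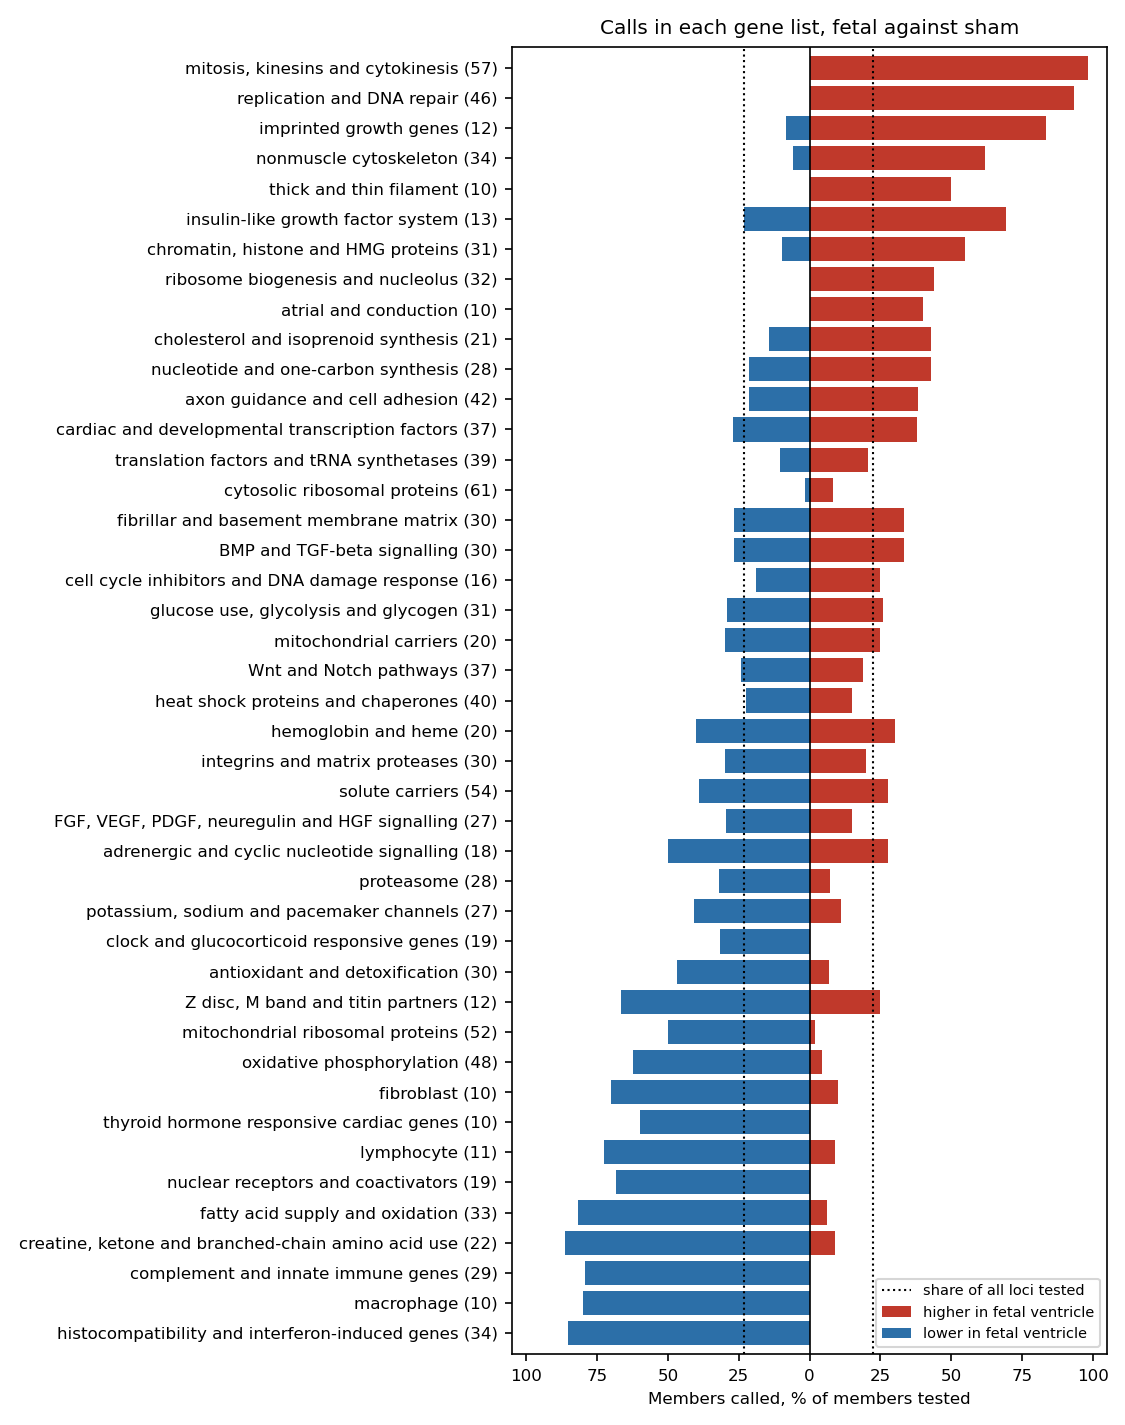
Share of the tested members of each gene list that were higher (right, red) or lower (left, blue) in fetal ventricle, in percent, with the number of tested members in parentheses and dotted lines at the shares over all 14139 loci. Mitosis genes reach 98.2% on the right and histocompatibility and interferon-induced genes 85.3% on the left.

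Among the largest rises were genes of several unrelated kinds. Hif3a, a hypoxia-inducible factor subunit that dampens the others, stood at 19.6, 44.3 and 50.1 in fetal and 0, 0 and 0.0337 in sham (log2 difference 5.17, SE 0.38, adjusted p = 2.0e-05; rn4 chr1:77377464-77414399). Fbn2, the fetal fibrillin of elastic microfibrils, stood at 62.6, 40.0 and 44.4 in fetal and 0.434, 0.148 and 1.01 in sham (log2 difference 5.04, adjusted p = 9.7e-06; rn4 chr18:53883010-53913997). The adult values of both genes were at or near 0. Separate groups were a condition for naming the largest changes, and over all tested loci the fetal and sham values did not overlap in 57.9%.

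Dlk1, an imprinted transmembrane relative of the Notch ligands, stood at 25.9, 65.9 and 60.1 in fetal and 0, 1.01 and 1.63 in sham (log2 difference 4.78, adjusted p = 0.0001). Plagl1, an imprinted zinc-finger gene, stood at 45.5, 22.3 and 53.3 in fetal and 0.194, 0.939 and 0.184 in sham (log2 difference 4.80, adjusted p = 2.0e-05). Nt5dc2, of the 5′-nucleotidase family, stood at 98.8, 111 and 97.7 in fetal and 0, 0 and 4.16 in sham (log2 difference 5.90, adjusted p = 8.1e-05), and without sham replicate 3, its only sham library above 0, the difference was 6.69. The protocadherin-like Pcdh21 rose by 4.98 and Bex4, a relative of Bex1, by 5.31; Bex genes have close copies that may share reads.

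On the adult side Aldh1a1, a retinaldehyde dehydrogenase that makes retinoic acid, stood at 2.29, 1.95 and 0.999 in fetal and 83.7, 125 and 95.1 in sham (log2 difference -5.23, adjusted p = 2.3e-06; rn4 chr1:223731658-223773219). Its relative Aldh1a2, the main retinoic acid enzyme of the embryonic epicardium, moved the other way, at 22.1, 15.4 and 13.8 in fetal and 3.32, 2.82 and 3.56 in sham (log2 difference 2.07, adjusted p = 0.00013).

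Gda, guanine deaminase, stood at 0.0634, 0.209 and 0.204 in fetal and 92.0, 65.6 and 61.6 in sham (log2 difference -5.98). Xdh, the xanthine dehydrogenase that makes uric acid, stood at 0.677, 0.73 and 0.486 in fetal and 49.8, 40.0 and 39.3 in sham (log2 difference -4.75, adjusted p = 1.0e-06). Lims2, a focal adhesion adaptor, stood at 3.29, 9.20 and 8.12 in fetal and 323, 348 and 297 in sham (log2 difference -5.46). Pla2g2a, a secreted phospholipase, stood at 1.28, 1.55 and 4.59 in fetal and 251, 107 and 112 in sham (log2 difference -5.51). All 4 genes were scarce in every fetal library and abundant in every sham library.

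Several called loci were listed at 0 in every library of a group, 63 in fetal and 56 in sham. A deposited 0 can also be a failed or displaced estimate, since each library was assembled on its own: of the 63, 8 (12.7%) had another feature of at least 1 in all 3 libraries over most of their span, and of the 56, 4 (7.1%). For the genes named here no such feature was found. Inha, the inhibin alpha subunit, was listed at 0 in the fetal libraries and at 49.96, 47.0 and 60.1 in sham (adjusted p = 5.6e-06). Creb3, a transcription factor of the endoplasmic reticulum, was listed at 0 in fetal and at 49.3, 55.9 and 66.9 in sham (adjusted p = 0.0061). In the TAC libraries Creb3 was listed at 0, 45.4 and 0, so a 0 at this locus is not particular to fetal ventricle. Ces3, a carboxylesterase, was listed at 0 in fetal and at 78.3, 34.2 and 35.9 in sham (adjusted p = 2.4e-05).

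**Figure D2:**
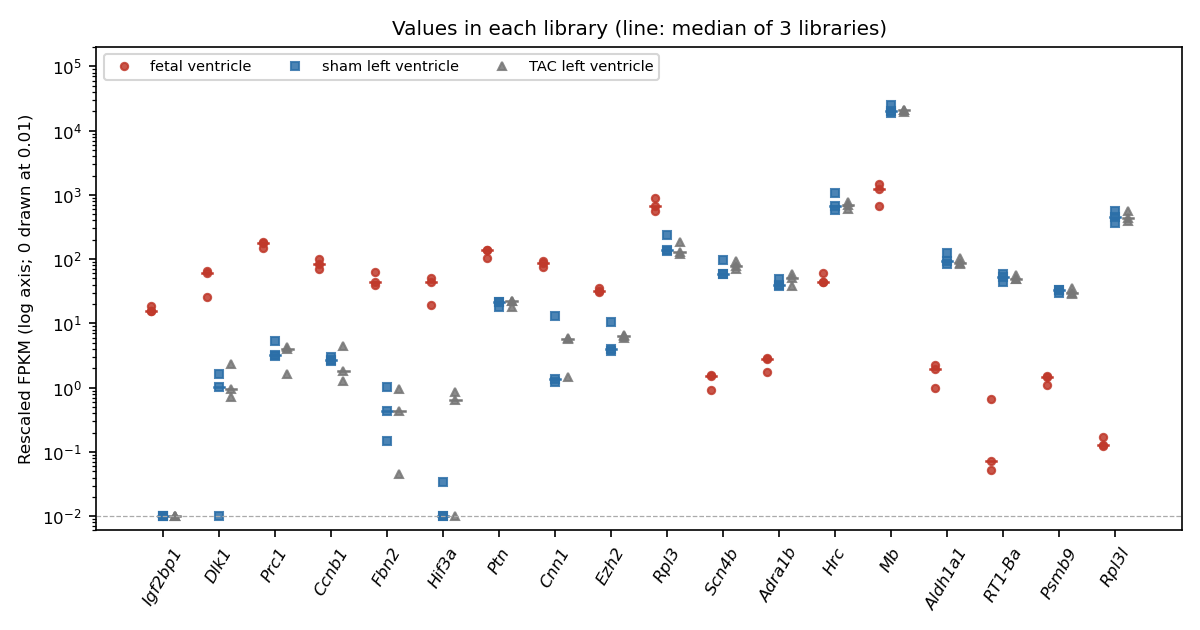
Rescaled FPKM of 18 named genes in each of the 9 libraries (log axis, with 0 drawn at 0.01), with a line at the median of the 3 libraries of a group. From Igf2bp1 to Rpl3 every fetal library lies above every sham library, and from Scn4b to Rpl3l every one lies below; Igf2bp1 is listed at 0 in all 3 sham libraries.

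Genes of cell division moved almost all one way. Of 57 genes of mitosis, kinesin motors and cytokinesis tested, 56 rose and 0 fell, with a median difference of 3.86 against 0.04 over all loci. Of 46 genes of replication and repair 43 rose and 0 fell, with a median of 2.26. In the plot of list members the mitosis genes lie farthest on the fetal side.

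Prc1, which bundles the microtubules of the dividing spindle, stood at 181, 148 and 182 in fetal and 5.39, 3.14 and 3.24 in sham (log2 difference 5.15, SE 0.30, adjusted p = 7.1e-06; rn4 chr1:136112673-136133720). Cdc2, the cyclin-dependent kinase that starts mitosis, stood at 161, 100.03 and 114 in fetal and 5.72, 5.86 and 2.72 in sham (log2 difference 4.47, adjusted p = 3.4e-05). Its cyclin Ccnb1 stood at 99.9, 82.9 and 70.7 in fetal and 2.60, 3.05 and 2.67 in sham (log2 difference 4.49, adjusted p = 1.5e-05). The Cdc2 partner Cks2 stood at 93.1, 34.0 and 33.1 in fetal and 2.94, 1.87 and 0.704 in sham (log2 difference 4.17). Cdc20, which lets chromosomes separate, stood at 77.4, 82.5 and 79.1 in fetal and 6.63, 3.02 and 4.23 in sham (log2 difference 3.89). Prc1, Cdc2, Cks2 and Cdc20 are the mitotic genes whose promoters are printed above. Fetal and sham values do not overlap in any of these genes, which is also so in 57.9% of all loci tested.

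Plk1, a mitotic kinase, stood at 55.4, 61.2 and 69.4 in fetal and 2.83, 1.40 and 1.01 in sham (log2 difference 4.57). Anln, the anillin of the contractile ring, stood at 78.1, 59.0 and 80.5 in fetal and 2.37, 1.10 and 1.301 in sham (log2 difference 4.85). The DEP-domain gene Depdc1 rose by 4.94 and the centromere gene Cenpt by 4.71. The 1 member that did not pass was the locus listed as Zwint, the symbol of a kinetochore protein. It was low in both groups, at 0, 1.98 and 1.03 in fetal and 0, 0.561 and 0.902 in sham (log2 difference 0.34, adjusted p = 0.61). This locus spans only rn4 chr16:9912432-9913100, and whether it is the Zwint gene or a copy of it was not tested.

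At replication origins, Mcm6, a subunit of the replicative helicase, stood at 89.8, 83.3 and 84.8 in fetal and 5.05, 4.17 and 4.27 in sham (log2 difference 3.99, adjusted p = 3.4e-06). Gins1, a helicase partner, stood at 25.9, 31.4 and 27.5 in fetal and 1.14, 2.59 and 2.43 in sham (log2 difference 3.30). Cdc6, which loads the helicase, stood at 13.0, 16.8 and 18.7 in fetal and 0.413, 0.0476 and 0.384 in sham (log2 difference 3.74). Gmnn, geminin, which stops a second loading, stood at 55.6, 39.6 and 46.8 in fetal and 3.88, 3.26 and 1.38 in sham (log2 difference 3.71). Pole2, a DNA polymerase epsilon subunit, rose by 3.53 and Fancd2, of crosslink repair, by 3.68. Among the 3 that did not pass, Rfc4, a clamp loader subunit, stood at 30.2, 0 and 28.0 in fetal and 3.51, 4.38 and 3.16 in sham (log2 difference 1.05, adjusted p = 0.49). The origin gene Orc6l stood at 20.3, 0 and 18.1 in fetal and 1.51, 2.24 and 3.002 in sham (log2 difference 1.21, adjusted p = 0.37). Rfc4 and Orc6l were both listed at 0 in fetal replicate 2 and lay above sham in the others.

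The transcription factors of this program rose with it. Foxm1, which drives mitotic genes, stood at 24.1, 21.98 and 22.5 in fetal and 1.58, 1.69 and 1.46 in sham (log2 difference 3.21, adjusted p = 6.6e-06). Mybl2, of the mitotic complex named above, stood at 14.0, 15.5 and 16.1 in fetal and 0.81, 0.626 and 0.707 in sham (log2 difference 3.24, adjusted p = 5.9e-06). Rbl1, a retinoblastoma relative, stood at 22.4, 16.9 and 36.5 in fetal and 1.26, 1.19 and 1.23 in sham (log2 difference 3.49). Inhibitors of the cycle were divided, 4 higher and 3 lower of 16, in shares not far from the 22.4% and 23.1% of all loci. The rises numbered 2 without fetal replicate 3 or sham replicate 3. The list as a whole leaned to neither side, and the 3 lower genes described next do not stand for it. Among those lower, Cdkn1a, the p21 inhibitor of cyclin-dependent kinases, stood at 6.42, 12.8 and 16.2 in fetal and 74.2, 32.2 and 43.1 in sham (log2 difference -1.99; -1.31 in replicates 2 and 3 alone). Ccng1, cyclin G1, stood at 258, 279 and 311 in fetal and 1076, 1331 and 1116 in sham (log2 difference -2.05). The damage-response gene Gadd45a stood at 31.4, 46.9 and 47.0 in fetal and 104, 91.7 and 111 in sham (log2 difference -1.29). With reference transcripts only, Anln, Gmnn and Mybl2 were no longer called.

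Of 31 chromatin, histone and high-mobility-group genes 17 rose (11 without sham replicate 2) and 3 fell. Hmgn1, a nucleosome-binding protein, stood at 330.3, 318 and 274 in fetal and 81.9, 79.4 and 46.9 in sham (log2 difference 2.17, adjusted p = 0.00011). The DNA methyltransferase Dnmt3a stood at 28.1, 24.4 and 26.8 in fetal and 8.97, 6.76 and 9.10 in sham (log2 difference 1.57). The paired histone H3K27 methyltransferases moved in opposite directions. Ezh2, the form of dividing cells, stood at 31.7, 31.0 and 35.2 in fetal and 10.4, 4.07 and 3.77 in sham (log2 difference 2.37, adjusted p = 0.00045). Ezh1, that of resting cells, stood at 10.8, 8.62 and 10.1 in fetal and 27.1, 24.7 and 28.4 in sham (log2 difference -1.36, adjusted p = 0.00014). The mitochondrial deacetylase Sirt3, listed among them, fell by 2.14.

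**Figure D3:**
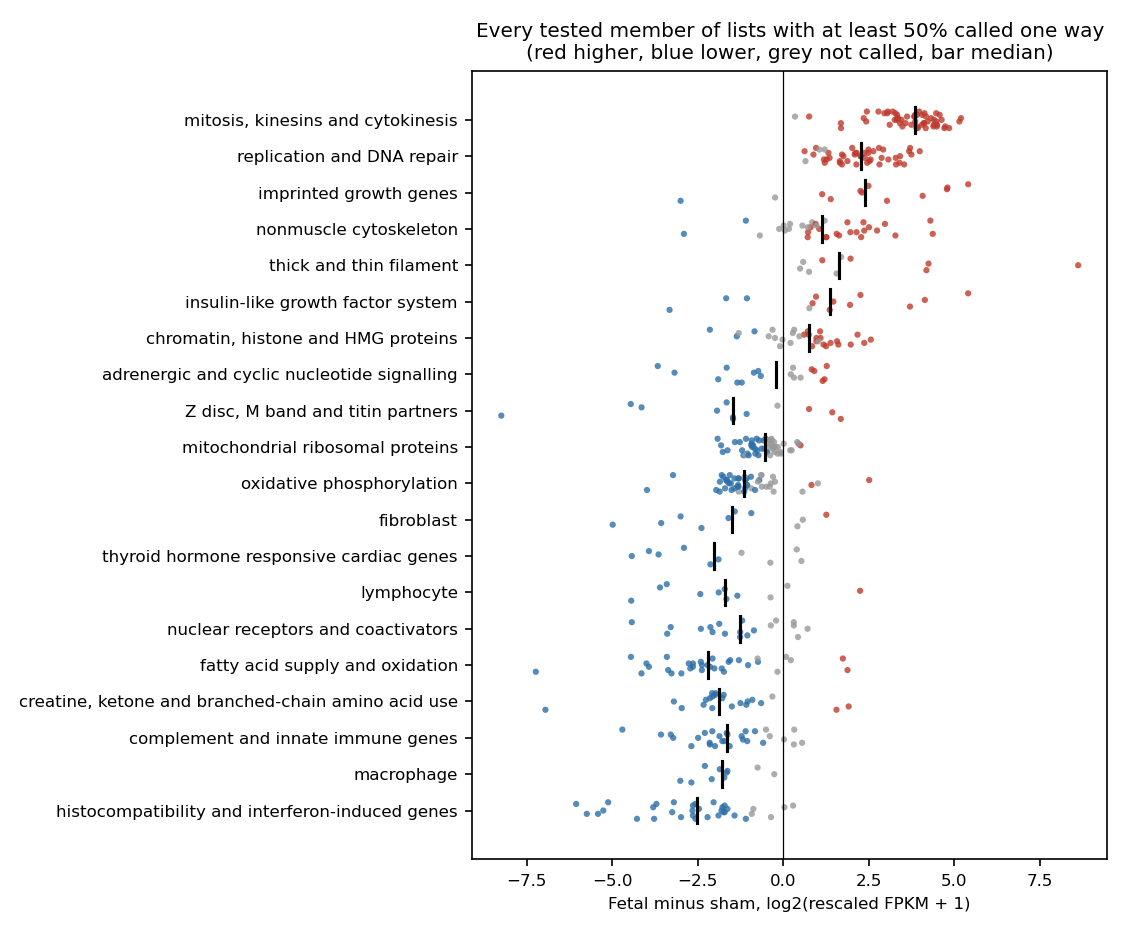
Difference between fetal and sham, log2(rescaled FPKM + 1), of every tested member (points: red higher, blue lower, grey not called) and the median (bar) in the lists with at least 50% of members called in 1 direction. The mitosis genes lie around a median of 3.86 and the histocompatibility and interferon-induced genes around -2.51.

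Imprinted growth genes are expressed from the copy of one parent and act mostly before birth. Of 12 tested, 10 rose and 1 fell (median 2.39). Grb10, an adaptor that restrains insulin receptors, stood at 527, 435 and 517 in fetal and 34.7, 24.1 and 27.1 in sham (log2 difference 4.07, SE 0.24, adjusted p = 7.9e-06). Ndn, necdin, stood at 41.0, 27.5 and 38.9 in fetal and 7.41, 3.78 and 5.73 in sham (log2 difference 2.49). Igf2r, the receptor that clears the growth factor Igf2, stood at 385, 184 and 163 in fetal and 40.8, 48.7 and 51.1 in sham (log2 difference 2.25, adjusted p = 0.00046), with fetal replicate 1 highest, as in the ligand Igf2 itself (1444, 768 and 842 in fetal and 31.4, 11.3 and 30.0 in sham).

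In the insulin-like growth factor system 9 of 13 rose (5 without fetal replicate 1) and 3 fell. The receptor Igf1r stood at 16.3, 15.1 and 12.2 in fetal and 2.86, 2.41 and 3.84 in sham (log2 difference 1.95, adjusted p = 0.00019; -1.35, not called, with reference transcripts only). Igf2bp1, an RNA-binding protein of Igf2 mRNA, stood at 18.9, 15.3 and 15.7 in fetal and was listed at 0 in every sham library (adjusted p = 2.9e-06). Its relative Igf2bp2 stood at 30.1, 23.6 and 31.6 in fetal and 1.64, 1.21 and 0.942 in sham (log2 difference 3.70). The binding protein Igfbp6 moved the other way, at 1.90, 1.83 and 1.79 in fetal and 21.9, 36.5 and 25.7 in sham (log2 difference -3.32, adjusted p = 7.6e-06) while Igfbp7 fell by 1.67.

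Other secreted growth factors included the heparin-binding pair midkine and pleiotrophin. Mdk stood at 155, 138 and 108 in fetal and 8.32, 9.08 and 6.46 in sham (log2 difference 3.91, adjusted p = 6.7e-05). Ptn stood at 137, 103.3 and 141 in fetal and 21.3, 17.9 and 21.7 in sham (log2 difference 2.58, adjusted p = 1.1e-05). Fgf16, a heart fibroblast growth factor, was lower in fetal, at 6.77, 7.63 and 9.63 in fetal and 38.0, 38.4 and 31.2 in sham (log2 difference -2.04, adjusted p = 0.00011). With reference transcripts only, Mdk was no longer called (0.05).

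Of the BMP and TGF-beta family 10 of 30 rose (33.3%) and 8 fell (26.7%), against 22.4% and 23.1% of all loci. The rises numbered 2 without fetal replicate 1 or without fetal replicate 3, 5 without fetal replicate 2 and 6 without sham replicate 3. Part of the drop comes from the filter, since Bmp5, Bmp7 and Bmp10 are not tested with a fetal library left out. Bmp7, a ligand, stood at 68.7, 67.9 and 60.5 in fetal and 0.853, 0.465 and 0.321 in sham. Bmp5, another ligand, stood at 7.37, 5.22 and 5.12 in fetal and 0.0321, 0.294 and 0.478 in sham (log2 difference 2.45, adjusted p = 0.00013). Bmp10, a ligand of the trabeculating embryonic heart, stood at 35.8, 14.9 and 14.1 in fetal with 0 listed in every sham library (adjusted p = 2.9e-05). The decoy receptor Bambi rose by 1.49.

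Wnt and Notch genes were near the background, with 7 higher (18.9%) and 9 lower (24.3%) of 37, against 22.4% and 23.1% of all loci. Sfrp1, a secreted inhibitor of Wnt, stood at 99.8, 122 and 102.6 in fetal and 9.88, 8.08 and 10.3 in sham (log2 difference 3.39, adjusted p = 0.00013), while the ligands Wnt11 and Wnt9a fell by 1.95 and 1.72. On the Notch side, the endothelial ligand Dll4 stood at 8.15, 6.77 and 4.33 in fetal and 28.8, 18.4 and 16.7 in sham (log2 difference -1.58) and its targets Hes1 and Hey1 fell by 1.41 and 1.22. With reference transcripts only, Sfrp1, Wnt11, Hes1 and Hey1 were no longer called, and the list's rises numbered 4 with any 1 fetal library or sham replicate 2 left out and 11 with upper quartile scaling.

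Developmental transcription factors rose at 14 (37.8%) and fell at 10 (27.0%) of 37, against 22.4% and 23.1% of all loci. In replicates 2 and 3 alone 9 rose and 5 fell. The rises numbered 9 without fetal replicate 3, and the falls 6 without fetal replicate 1 or sham replicate 3 and with either other scaling. Tead2, a factor of the Hippo pathway, stood at 46.5, 39.6 and 42.4 in fetal and 1.94, 1.95 and 0.908 in sham (log2 difference 4.10, adjusted p = 4.5e-05). Hand1, of the embryonic left ventricle, stood at 6.52, 7.98 and 11.9 in fetal and 0, 0.139 and 0.0675 in sham (log2 difference 3.16). Sox11, of embryonic progenitors, stood at 6.15, 8.97 and 9.38 in fetal with 0 listed in every sham library (adjusted p = 1.5e-05). It passed the filter through the fetal libraries alone. Tbx18, a marker of epicardium and sinus node precursors, stood at 19.6, 24.2 and 16.2 in fetal and 3.41, 2.80 and 2.87 in sham (log2 difference 2.37). Tead2 and Tbx18 were not called with reference transcripts only.

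Genes of the action potential were more often lower than higher before birth. Of 27 potassium, sodium and pacemaker channel genes 11 fell (40.7%) and 3 rose (11.1%), against 23.1% and 22.4% of all loci. The rises numbered 5 with upper quartile scaling. Scn4b, a beta subunit that sets the opening of the cardiac sodium channel, stood at 1.51, 1.56 and 0.924 in fetal and 58.5, 96.9 and 58.6 in sham (log2 difference -4.93, adjusted p = 3.4e-06). Kcnip2_v2, listed under that symbol for the accessory subunit of the transient outward current, stood at 14.0, 39.1 and 42.8 in fetal and 1045, 820.4 and 819 in sham (log2 difference -4.90, adjusted p = 2.3e-05; -4.29 in replicates 2 and 3 alone). Kcnd2, a pore subunit of the same current, stood at 1.47, 1.29 and 1.32 in fetal and 4.53, 12.5 and 7.93 in sham (log2 difference -1.89, adjusted p = 0.0023).

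Kcnj8, the ATP-sensitive channel of vascular muscle, stood at 9.79, 12.8 and 12.3 in fetal and 39.0, 37.9 and 45.5 in sham (log2 difference -1.73). Fgf12, an intracellular regulator of sodium channels, stood at 8.59, 8.57 and 6.04 in fetal and 101, 97.2 and 64.9 in sham (log2 difference -3.33). In the other direction, Kcne1l, a potassium channel beta subunit gene, stood at 6.03, 9.80 and 7.68 in fetal and 0, 0 and 0.408 in sham (log2 difference 2.96, adjusted p = 0.00081). With reference transcripts only, Kcnd2 was not called.

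Gap junction genes differed from each other. Gja5, connexin 40 of atrium, trabeculae and fast conduction tissue, stood at 108, 87.7 and 72.5 in fetal and 8.40, 7.68 and 6.63 in sham (log2 difference 3.38, SE 0.19, adjusted p = 6.0e-06; rn4 chr2:191824095-191843865). Gja1, connexin 43 of working muscle, stood at 330.2, 339 and 321 in fetal and 403, 372 and 557 in sham and did not pass (log2 difference -0.40, adjusted p = 0.1).

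In calcium handling few genes carry a symbol, and 3 of 8 fell and 2 rose. The falls numbered 1 without fetal replicate 1 or 3, without sham replicate 2 or 3, and with upper quartile scaling. Hrc, a calcium-binding protein of the sarcoplasmic reticulum, stood at 44.1, 60.9 and 44.1 in fetal and 592, 668 and 1082 in sham (log2 difference -3.91, adjusted p = 9.7e-06; rn4 chr1:95805142-95808746). Sln, sarcolipin, which inhibits the calcium pump, spanned 14.0, 0.244 and 1.09 in fetal and 11.3, 3.98 and 1.25 in sham and did not pass (log2 difference -0.61, adjusted p = 0.66). Both groups of Sln vary widely and overlap.

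Receptors of catecholamines were among the genes lower in fetal ventricle. The alpha-1 receptor Adra1b stood at 1.77, 2.85 and 2.77 in fetal and 38.8, 49.7 and 39.9 in sham (log2 difference -3.67, adjusted p = 6.6e-06). Adra1d, of the same family, stood at 0.556, 0.472 and 0.505 in fetal and 11.02, 13.8 and 13.3 in sham (log2 difference -3.18, adjusted p = 5.5e-06). In both receptors the groups are separate, as in 57.9% of all loci.

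Over the adrenergic and cyclic nucleotide list 9 fell and 5 rose of 18, and 5 fell without fetal replicate 2 or sham replicate 2. The G-protein regulators Rgs4 and Rgs2 parted. Rgs4 stood at 14.8, 7.24 and 8.49 in fetal and 37.7, 25.6 and 36.4 in sham (log2 difference -1.65, adjusted p = 0.0022). Rgs2 stood at 32.1, 23.9 and 35.6 in fetal and 19.7, 7.72 and 12.7 in sham (log2 difference 1.205, adjusted p = 0.011). Npr2, the receptor of C-type natriuretic peptide, fell by 1.34.

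Contractile genes with a symbol were few. Of 10 thick and thin filament genes 5 rose and 0 fell. Tnni1, the slow troponin I of the embryonic heart, stood at 2055, 2635 and 2821 in fetal and 18.9, 3.01 and 2.17 in sham (log2 difference 8.61, adjusted p = 0.00021), or 9.44 without sham replicate 1, its highest sham library. Myl9, a regulatory light chain of smooth and nonmuscle myosin, stood at 1381, 1796 and 1680.2 in fetal and 126, 70.4 and 75.8 in sham (log2 difference 4.18, adjusted p = 1.4e-05). Mylpf, that of fast skeletal muscle, was low, at 1.80, 3.73 and 4.01 in fetal and 0.112, 0 and 0 in sham (log2 difference 1.97). Acta1, skeletal actin, stood at 3116, 10267 and 3125 in fetal and 2601, 942 and 1599 in sham and did not pass (log2 difference 1.56, adjusted p = 0.056), nor did Actc1, at 21480.1, 21325 and 24556 in sham (log2 difference 0.58, adjusted p = 0.63).

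Z-disc and M-band genes went mostly the other way, 8 lower and 3 higher of 12 (median -1.47). The M-band proteins Myom2 and Myom3 were both low before birth. Myom3 stood at 0.602, 0.463 and 0.698 in fetal and 31.1, 22.9 and 53.6 in sham (log2 difference -4.45, adjusted p = 2.4e-05). Myom2 stood at 2.44, 5.47 and 2.37 in fetal and 1007, 1325 and 1541 in sham (log2 difference -8.24), but turned with reference transcripts only to 2.03 (adjusted p = 0.0014). Des, the muscle intermediate filament, stood at 2291, 1943 and 2186 in sham (log2 difference -1.65, adjusted p = 0.00072). Among the titin-associated ankyrin repeat proteins, Ankrd23 stood at 0.323, 0.572 and 0.402 in fetal and 40.0, 18.9 and 18.5 in sham (log2 difference -4.14). Ankrd1, a stretch-responsive gene, stood at 772, 933 and 726 in fetal and 2105, 2363 and 2225 in sham (log2 difference -1.47, adjusted p = 0.0028).

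Trim55, a ubiquitin ligase of the M band, rose, at 294, 587 and 306 in fetal and 115, 112 and 122 in sham (log2 difference 1.68, adjusted p = 0.00094). The skeletal Z-disc genes Myot and Myoz1 were low in both groups, with Myot at 0.0519, 0 and 0 in fetal and 5.38, 1.66 and 2.46 in sham (log2 difference -1.93). Myoz1 fell by 1.47 but did not pass in replicates 2 and 3 alone (adjusted p = 0.078). With reference transcripts only, Tnni1, Des and Myot were not called.

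Transcripts of fatty acid genes mostly moved opposite to those of division. Of 33 genes of fatty acid supply and oxidation 27 fell and 2 rose (median -2.21). Ech1, an auxiliary enzyme of beta-oxidation, stood at 68.6, 68.7 and 71.2 in fetal and 855, 1115 and 1492 in sham (log2 difference -4.00, SE 0.24, adjusted p = 7.3e-06). Pnpla2, the triglyceride lipase that frees fatty acids from stores, stood at 20.8, 25.4 and 29.6 in fetal and 251, 225 and 334 in sham (log2 difference -3.36, adjusted p = 5.3e-06). Gpd1, a glycerol phosphate dehydrogenase, stood at 5.37, 6.82 and 7.20 in fetal and 132, 122 and 136 in sham (log2 difference -4.14). Fabp4, a fatty acid binding protein of endothelium and fat, stood at 105.4, 211 and 222 in fetal and 798, 901 and 595 in sham (log2 difference -2.14). Ucp3, a mitochondrial uncoupling protein, was listed at 0 in fetal and at 21.9, 8.92 and 14.4 in sham (adjusted p = 2.4e-05).

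The exceptions were acyl-CoA synthetases. Acsl3 stood at 49.2, 35.8 and 36.8 in fetal and 16.2, 7.73 and 8.36 in sham (log2 difference 1.88, adjusted p = 0.0029). Acsl4, which prefers arachidonic acid, stood at 21.4, 14.0 and 17.4 in fetal and 6.60, 4.54 and 2.93 in sham (log2 difference 1.74, adjusted p = 0.0025; not called with reference transcripts only). Cpt1a, the liver and fetal form of the carnitine transferase that admits fatty acids to mitochondria, stood at 44.1, 29.4 and 34.0 in fetal and 28.5, 29.2 and 33.0 in sham, with overlapping groups (log2 difference 0.22, adjusted p = 0.35). The carnitine carriers Slc25a20 of mitochondria and Slc22a5 of the cell membrane fell by 2.21 and 2.05.

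Genes for the use of creatine, ketones and branched-chain amino acids were mostly lower in fetal ventricle as well, 19 of 22 lower and 2 higher (median -1.88). Bckdha, of the dehydrogenase that commits branched-chain amino acids to breakdown, stood at 32.6, 47.9 and 30.0 in fetal and 346, 341 and 329.7 in sham (log2 difference -3.20, adjusted p = 6.3e-06). Oxct1, the enzyme that activates ketones, stood at 463, 373 and 437 in fetal and 1579, 1903 and 1855 in sham (log2 difference -2.07). Aldh6a1, of valine breakdown, stood at 72.5, 85.6 and 87.8 in fetal and 378, 471 and 399 in sham (log2 difference -2.33). Mut, methylmalonyl-CoA mutase, fell by 2.97 (log2 difference -2.04 without fetal replicate 3).

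The transaminases of the first step of branched-chain breakdown moved in opposite directions. Bcat2, the mitochondrial transaminase, stood at 43.2, 71.7 and 42.2 in fetal and 182, 221 and 214 in sham (log2 difference -1.99, adjusted p = 0.0002). Bcat1, the cytosolic one, stood at 28.4, 15.8 and 17.5 in fetal and 6.54, 3.01 and 4.70 in sham (log2 difference 1.91, adjusted p = 0.0059). Gatm, which starts creatine synthesis, rose as well, at 59.3, 39.9 and 40.1 in fetal and 16.8, 18.4 and 10.6 in sham (log2 difference 1.55, adjusted p = 0.0071), while the brain-type creatine kinase Ckb did not pass (log2 difference -0.32, adjusted p = 0.25).

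Glycolysis was divided, with 8 genes higher and 9 lower of 31 (median 0.01), not far from the 22.4% and 23.1% over all loci. Slc2a1, the basal glucose transporter of fetal heart, stood at 161, 136 and 159 in fetal and 15.4, 15.2 and 19.4 in sham (log2 difference 3.11, adjusted p = 3.5e-06). Eno2, the neuronal enolase, stood at 104, 82.3 and 82.0 in fetal and 7.55, 4.85 and 8.65 in sham (log2 difference 3.52, adjusted p = 7.6e-06). Aldoc, the brain aldolase, stood at 25.7, 38.0 and 28.4 in fetal and 5.10, 2.36 and 1.68 in sham (log2 difference 3.04, adjusted p = 0.00025). Pygm, muscle glycogen phosphorylase, stood at 305, 348 and 353 in fetal and 1000.01, 989 and 1227 in sham (log2 difference -1.67), and its brain form Pygb fell by 1.43.

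In oxidative phosphorylation 30 of 48 subunit genes fell and 2 rose (median -1.13). Uqcrc1, a core subunit of complex III, stood at 389.8, 391 and 396 in fetal and 1363, 1322 and 1604 in sham (log2 difference -1.86, adjusted p = 6.2e-05). Ndufv3, of complex I, stood at 47.7, 42.0 and 37.2 in fetal and 184, 199 and 126 in sham (log2 difference -1.96). Cox7a2, of complex IV, fell by 3.22 (log2 difference -2.44 without fetal replicate 3), its lowest. Cox6b2, the testis form of a complex IV subunit, rose, at 14.8, 9.82 and 9.23 in fetal and 1.45, 0.963 and 0.977 in sham (log2 difference 2.51, adjusted p = 0.0027).

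Myoglobin, Mb, the oxygen store of muscle, stood at 661, 1503 and 1228 in fetal and 20342, 25217 and 18885 in sham (log2 difference -4.32, SE 0.40, adjusted p = 6.8e-05; rn4 chr7:115087558-115094850). Cytoglobin, Cygb, stood at 10.8, 21.5 and 17.5 in fetal and 95.7, 116 and 105.2 in sham (log2 difference -2.65). Of 20 hemoglobin and heme genes 6 rose (30.0%) and 8 fell (40.0%), against 22.4% and 23.1% of all loci. The rises numbered 2 with any 1 fetal library left out. Among the risers were red cell genes of the embryo. The gamma globin gene Hbg1 stood at 13.9, 5.70 and 4.30 in fetal with 0 listed in every sham library (adjusted p = 0.00027). Eraf, the stabiliser of alpha globin, stood at 97.3, 82.7 and 64.3 in fetal and 2.37, 1.13 and 1.56 in sham (log2 difference 4.95, adjusted p = 2.3e-05). Hbe1, embryonic epsilon globin, varied most, at 279.7, 89.9 and 51.7 in the fetal libraries (log2 difference 6.03; 5.36 without fetal replicate 1 and 6.79 without sham replicate 1). The adult-type Hba-a2 stood at 16926, 27430.2 and 19043 in fetal and 5071, 10036 and 11322 in sham and did not pass (log2 difference 1.31, adjusted p = 0.058). Globin genes have close copies that may share reads, and more blood in the tissue and more RNA per red cell cannot be told apart in bulk libraries, which holds for every cell type below.

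Of 30 genes of protection against oxidants 14 fell (46.7%, against 23.1% of all loci) and 2 rose (median -0.77). Sod3, the extracellular superoxide dismutase, stood at 2.95, 3.16 and 4.43 in fetal and 179.9, 94.3 and 87.9 in sham (log2 difference -4.69, adjusted p = 8.6e-06). Gsta1, a glutathione transferase, stood at 0.745, 0.454 and 0.121 in fetal and 29.7, 22.7 and 16.8 in sham (log2 difference -4.05). Prdx5, a mitochondrial peroxiredoxin, stood at 76.5, 87.8 and 49.0 in fetal and 449.6, 557 and 534 in sham (log2 difference -2.87).

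Genes for the synthesis of cell components rose more often than they fell. In nucleotide and one-carbon synthesis 12 of 28 rose (42.9%) and 6 fell (21.4%), against 22.4% and 23.1% of all loci. The falls numbered 3 without fetal replicate 3. Phgdh, the first enzyme of serine synthesis, stood at 28.6, 19.97 and 17.6 in fetal and 3.96, 3.68 and 2.47 in sham (log2 difference 2.39, adjusted p = 0.00015). Psat1, the next one, stood at 16.2, 12.5 and 18.8 in fetal and 1.71, 0.345 and 1.14 in sham (log2 difference 3.07, adjusted p = 0.00011). Mthfd2, the mitochondrial folate enzyme of growing cells, stood at 16.2, 15.9 and 16.9 in fetal and 4.88, 3.37 and 3.08 in sham (log2 difference 1.88). Tyms, thymidylate synthase, stood at 80.5, 40.8 and 70.8 in fetal and 14.7, 13.8 and 11.4 in sham (log2 difference 2.14).

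In sterol synthesis 9 of 21 rose (42.9%) and 3 fell (14.3%), against 22.4% and 23.1% of all loci. Sqle, squalene epoxidase, stood at 25.8, 27.2 and 26.4 in fetal and 4.26, 12.0 and 6.82 in sham (log2 difference 1.76, adjusted p = 0.0025). Insig2, which holds the sterol sensor back, stood at 21.4, 21.6 and 17.0 in fetal and 49.98, 46.8 and 59.2 in sham (log2 difference -1.34, adjusted p = 0.00027). Idi1 and Elovl6 rose by 2.27 and 2.98, but turned to -1.10 and -0.73, neither called, with reference transcripts only.

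Nuclear receptors and their coactivators held 0 rises and 13 falls among 19 genes (median -1.26). Thrb, the thyroid hormone receptor beta, stood at 0.687, 0.578 and 0.497 in fetal and 29.2, 33.4 and 37.1 in sham (log2 difference -4.43, adjusted p = 1.1e-06; rn4 chr15:9279949-9369382). Vdr, the vitamin D receptor, stood at 0.34, 0.104 and 0.441 in fetal and 6.06, 5.62 and 5.80 in sham (log2 difference -2.41). Esrra, the estrogen-related receptor that drives mitochondrial genes, stood at 19.2, 34.7 and 28.4 in fetal and 91.7, 117 and 141 in sham (log2 difference -2.07, adjusted p = 0.0004). Nr3c2, the mineralocorticoid receptor, stood at 1.56, 2.07 and 2.53 in fetal and 12.1, 10.8 and 7.73 in sham (log2 difference -1.87). Esr1, the estrogen receptor, did not pass (log2 difference 0.31, adjusted p = 0.4).

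Of 10 genes known to answer to thyroid hormone 6 fell and 0 rose. Me1, malic enzyme, stood at 13.4, 5.84 and 10.1 in fetal and 122, 144 and 119 in sham (log2 difference -3.64, adjusted p = 1.5e-05). Hr, the hairless corepressor, stood at 0.22, 0.0247 and 0.153 in fetal and 3.68, 3.31 and 4.98 in sham (log2 difference -2.13, adjusted p = 0.0026). The thyroid hormone transporter Slc16a10 did not pass (log2 difference 0.53, adjusted p = 0.17).

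Among 19 clock and glucocorticoid genes 6 fell (31.6%) and 0 rose, against 23.1% and 22.4% of all loci. Hsd11b1, which regenerates active glucocorticoid, stood at 2.17, 1.18 and 1.62 in fetal and 65.2, 71.3 and 60.7 in sham (log2 difference -4.67, adjusted p = 1.0e-06). Klf15, a glucocorticoid-induced factor of fuel use, stood at 8.52, 17.5 and 11.4 in fetal and 27.1, 36.3 and 31.7 in sham (log2 difference -1.32, adjusted p = 0.0053). The clock output gene Dbp varied widely between sham libraries (16.0, 163 and 50.3) and did not pass (log2 difference -2.21, adjusted p = 0.069), nor did Fkbp5, a glucocorticoid target (log2 difference 0.23, adjusted p = 0.39). With reference transcripts only, Thrb, Vdr, Nr3c2 and Klf15 were not called.

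The matrix was divided, with 10 genes higher (33.3%) and 8 lower (26.7%) of 30, against 22.4% and 23.1% of all loci. Postn, periostin, a matrix protein of developing valves and fibroblasts, stood at 364, 213 and 232 in fetal and 24.0, 7.45 and 8.14 in sham (log2 difference 4.40, adjusted p = 0.00015). Nid2, a basement membrane linker, stood at 81.6, 53.0 and 50.7 in fetal and 14.3, 12.3 and 8.46 in sham (log2 difference 2.30). Mfap5, a microfibril protein, stood at 0.75, 0.395 and 1.04 in fetal and 80.5, 41.7 and 44.3 in sham (log2 difference -4.98, adjusted p = 5.2e-06), opposite to the fibrillin Fbn2 above. Sparcl1, a relative of Sparc, stood at 50.7, 36.4 and 35.4 in fetal and 335, 255 and 301 in sham (log2 difference -2.84).

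Col8a1, a short-chain collagen, fell by 3.41. The abundant Sparc, a collagen chaperone, stood at 1239, 873 and 899.6 in fetal and 1460.3, 1409 and 1238 in sham and did not pass (log2 difference -0.46, adjusted p = 0.11). The proteoglycan Bgn did not pass, at 228, 72.3 and 92.3 in fetal and 226, 101 and 85.6 in sham (log2 difference -0.12, adjusted p = 0.86). The fibrillin Fbn1 did not pass either, at 81.5, 49.0 and 35.9 in fetal and 35.4, 20.1 and 62.3 in sham (log2 difference 0.55, adjusted p = 0.36). Of integrins and proteases 6 rose and 9 fell of 30. Itga2, a collagen receptor, rose by 2.10, and Adam12, a metalloprotease of fusing and growing cells, by 2.52, both from sham values below 1. Itgb2, the leukocyte integrin, fell by 2.04, and Ctss, a lysosomal protease of phagocytes, fell by 2.57, and neither was called with reference transcripts only.

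The nonmuscle cytoskeleton rose at 21 of 34 genes and fell at 2 (median 1.13). Tubb5, the common beta tubulin, stood at 1683, 1515 and 1491 in fetal and 218, 186 and 192 in sham (log2 difference 2.97, adjusted p = 5.9e-06). Tubb6 stood at 111, 110.3 and 129 in fetal and 27.7, 18.2 and 20.5 in sham (log2 difference 2.37). Lmnb1, the B-type lamin of growing cells, stood at 162, 121 and 215 in fetal and 8.06, 6.10 and 7.83 in sham (log2 difference 4.30). Tuba4a, an alpha tubulin of adult muscle, stood at 86.5, 106 and 117 in fetal and 610.5, 762 and 987 in sham (log2 difference -2.90, adjusted p = 1.7e-05). The microtubule destabiliser Stmn1 rose by 3.28 (not called with reference transcripts only) and the growth cone protein Dpysl3 by 2.74. Tubulins share sequence, and reads may be shared between them.

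Cnn1, calponin of smooth muscle and of embryonic heart muscle, stood at 86.7, 76.6 and 92.5 in fetal and 13.0, 1.22 and 1.35 in sham (log2 difference 4.37, adjusted p = 0.0013), or 5.24 without sham replicate 1. Vim, the filament of mesenchymal cells, stood at 781, 711 and 871 in fetal and 375, 302 and 311 in sham (log2 difference 1.26, adjusted p = 0.00022).

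Most immune genes were lower before birth. Of 34 histocompatibility and interferon-induced genes 29 fell and 0 rose (median -2.51). Class II genes present antigen to helper T cells. RT1-Ba stood at 0.053, 0.0715 and 0.657 in fetal and 58.0, 53.3 and 44.2 in sham (log2 difference -5.41, SE 0.21, adjusted p = 1.3e-06; rn4 chr20:4697998-4702565). RT1-Bb stood at 0.205, 0.311 and 0.179 in fetal and 42.6, 44.8 and 37.9 in sham (log2 difference -5.12). RT1-Db1 fell by 5.26. Fetal values of these genes stayed below 1, and class II genes are alike in sequence, so reads may be shared.

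The immunoproteasome, which cuts peptides for presentation, had all 3 of its catalytic subunits lower. Psmb8 stood at 0.745, 1.19 and 0.642 in fetal and 29.0, 40.7 and 35.2 in sham (log2 difference -4.27). Psmb9 stood at 1.47, 1.12 and 1.53 in fetal and 29.5, 33.6 and 32.8 in sham (log2 difference -3.80, adjusted p = 1.8e-06). Psmb10 stood at 6.34, 9.77 and 3.80 in fetal and 36.7, 49.6 and 37.4 in sham (log2 difference -2.53; not called with reference transcripts only). Tap2, which carries peptides into the endoplasmic reticulum, stood at 0.69, 1.32 and 1.34 in fetal and 14.9, 15.9 and 28.1 in sham (log2 difference -3.24).

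Genes of the interferon answer moved with them. Irf7, its amplifying factor, stood at 0.998, 1.36 and 2.15 in fetal and 21.3, 32.4 and 43.4 in sham (log2 difference -3.71, adjusted p = 3.4e-05). Gbp2, a guanylate-binding protein, stood at 1.196, 1.19 and 2.06 in fetal and 17.2, 26.4 and 21.7 in sham (log2 difference -3.20). Ifit3 stood at 0.105, 0.332 and 0.361 in fetal and 6.60, 7.75 and 5.25 in sham (log2 difference -2.57). Usp18, which removes the ubiquitin-like ISG15, stood at 0.106, 0 and 0.159 in fetal and 11.6, 14.4 and 15.8 in sham (log2 difference -3.77). The promoters of Irf7, Gbp2, Tap2 and Ifit3 are printed above. Of the abundant members that did not pass, Ifitm1 stood at 47.6, 37.6 and 41.7 in fetal and 38.5, 67.0 and 26.7 in sham (log2 difference 0.04, adjusted p = 0.94) and Ifitm2 had -0.92 (adjusted p = 0.053; 0.017 with the replicate block). Irf7 and Gbp2 were not called with reference transcripts only.

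Complement and innate genes held 23 falls and 0 rises among 29 (median -1.65). C1r, the first protease of the classical pathway, stood at 5.32, 2.45 and 3.23 in fetal and 137, 107 and 107 in sham (log2 difference -4.70, adjusted p = 4.0e-06). Cfd, factor D of the alternative pathway, stood at 0.981, 1.25 and 1.16 in fetal and 19.9, 19.8 and 19.5 in sham (log2 difference -3.29). C1qa stood at 9.49, 9.89 and 6.57 in fetal and 71.4, 52.5 and 58.3 in sham (log2 difference -2.68). C4b and Il33 did not pass (log2 difference 0.55, adjusted p = 0.073, and 0.31, adjusted p = 0.36).

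Markers of macrophages and lymphocytes moved with the immune genes, and their part in those results was not tested. Of 10 macrophage markers 8 fell and 0 rose, and their summed level was 70.5 to 76.1 in fetal and 308 to 557 in sham libraries. Csf1r, the receptor macrophages need, stood at 7.54, 5.22 and 5.27 in fetal and 37.8, 26.7 and 22.9 in sham (log2 difference -2.09). Lyz2, lysozyme, stood at 15.7, 19.4 and 25.9 in fetal and 233, 156 and 129 in sham (log2 difference -3.01), so neither is absent before birth. Of 11 lymphocyte markers 8 fell and 1 rose, with sums of 16.7 to 27.3 in fetal and 77.5 to 110.3 in sham. The chemokine Ccl5 stood at 0, 0.84 and 0.102 in fetal and 14.4, 43.5 and 29.4 in sham (log2 difference -4.44). The riser was Cd52, a leukocyte surface peptide, at 13.2, 21.4 and 9.69 in fetal and 1.88, 3.19 and 1.66 in sham (log2 difference 2.24, adjusted p = 0.00061).

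Other cell types differed too, and their part in the results above was not tested either. Fibroblast markers fell at 7 of 10 and rose at 1, against 23.1% and 22.4% of all loci, with Dpt, dermatopontin, at 29.5, 25.9 and 25.7 in fetal and 364, 304 and 325 in sham (log2 difference -3.57, adjusted p = 5.5e-06). Endothelial markers fell at 5 of 8 (2 without sham replicate 1 and with either other scaling, 3 without any other 1 of the 6 libraries). Pecam1, a junction protein, stood at 79.4, 23.1 and 93.8 in fetal and 146, 39.0 and 36.5 in sham and did not pass (log2 difference -0.09, adjusted p = 0.93). Emcn, endomucin, did not pass either (log2 difference -0.30, adjusted p = 0.24). Erythroid markers rose at 4 of 8 (2 with any 1 fetal library left out), with sums of 212 to 515 in fetal and 49.8 to 125 in sham. Epicardial and mesothelial markers rose at 3 of 8 (37.5%) and fell at 0, against 22.4% and 23.1% of all loci.

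Atrial genes were listed as markers of the tissue next to the ventricle. They rose at 4 of 10 (40.0%), against 22.4% of all loci. The rises numbered 1 with any 1 fetal library left out and 2 without sham replicate 3. Part of the drop to 1 comes from the filter, since Bmp10 is not tested with a fetal library left out. Myl7, the atrial light chain, stood at 496, 617 and 304 in fetal and 75.1, 80.6 and 1.22 in sham (log2 difference 4.24, adjusted p = 0.037). Nppa, atrial natriuretic peptide, stood at 1934, 1371 and 901 in fetal and 543, 424 and 153 in sham (log2 difference 2.03, adjusted p = 0.05). Neither was called without fetal replicate 1 (4.18 and 1.76), fetal replicate 2 (4.02 and 2.01), fetal replicate 3 (4.53 and 2.31) or sham replicate 3 (2.53 and 1.48), nor was Nppa without sham replicate 2 (2.21).

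Of tissues that could be carried over in dissection, the liver gene Alb stood at 9.14, 2.44 and 0 and Afp at 7.10, 0 and 0 in the fetal libraries, below the filter, with Alb at 0.0479, 0 and 0 in sham. The lung list had no member past the filter. Of the adipocyte list, which also holds the Cfd named above, 2 of 2 tested members fell. Its sums were 2.35 to 2.71 in fetal and 24.3 to 26.4 in sham. Of the thymus list 2 of 2 tested members fell, with sums of 7.08 to 10.8 in fetal and 39.2 to 55.9 in sham. Whether such tissue was carried over in the adult samples was not tested. In the neural list the Schwann cell gene Sox10 fell by 2.12 from low sham values (4.29, 3.86 and 2.57), and the neuronal Elavl4 stood at 2.44, 1.91 and 1.75 in fetal with 0 listed in every sham library (adjusted p = 0.00039). Ttr, transthyretin of the liver list, was lower in fetal, at 2.89, 1.76 and 2.27 in fetal and 41.5, 53.5 and 35.8 in sham (log2 difference -3.75; not called with reference transcripts only).

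**Figure D4:**
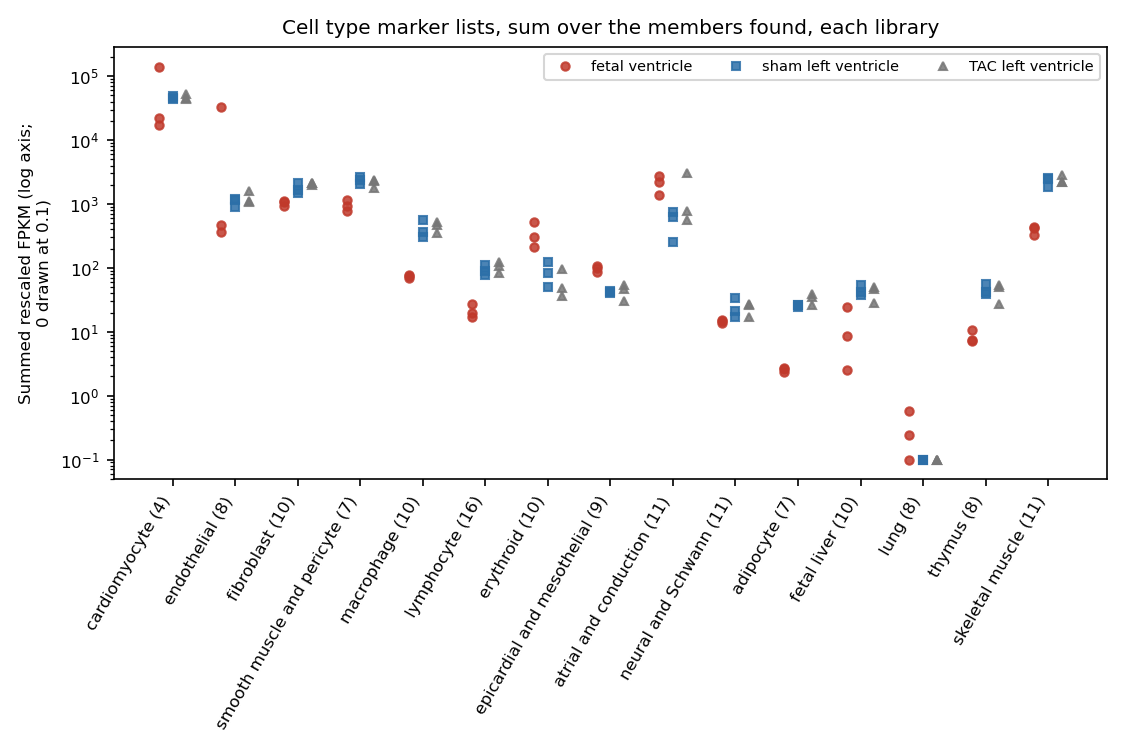
Summed rescaled FPKM of the members found in each cell type marker list (number in parentheses), for every library (log axis, with 0 drawn at 0.1). Macrophage sums lie at 70.5 to 76.1 in fetal and 308 to 557 in sham libraries; the high fetal points of the cardiomyocyte and endothelial lists are replicate 2, whose Actc1 and Sox17 values stand apart.

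Of 61 cytosolic ribosomal proteins 5 rose and 1 fell (median 0.28). The rises numbered 11 with the replicate block, 11 with upper quartile scaling, 9 without sham replicate 1, 2 without sham replicate 3 and 3 without fetal replicate 1 or 3. Rps4x stood at 1793, 1703 and 2150.1 in fetal and 709.7, 976 and 615 in sham (log2 difference 1.31, adjusted p = 0.0024). Arbp, the stalk protein often used as a reference, stood at 1445, 1052 and 786 in fetal and 1266, 908 and 929.8 in sham (log2 difference 0.05, adjusted p = 0.91).

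Upstream of the ribosome, 14 of 32 genes of ribosome biogenesis rose and 0 fell (median 0.54). Npm1, nucleophosmin, stood at 343, 137 and 167 in fetal and 81.0, 60.4 and 38.6 in sham (log2 difference 1.77, adjusted p = 0.0048). Nop58, of the small nucleolar particles, stood at 77.1, 66.1 and 70.6 in fetal and 22.5, 19.8 and 21.3 in sham (log2 difference 1.70). Of 39 translation factors and tRNA synthetases 8 rose (20.5%) and 4 fell (10.3%), against 22.4% and 23.1% of all loci. The rises numbered 19 with upper quartile scaling. Pabpc1, the poly(A)-binding protein, stood at 682, 339 and 481 in fetal and 159, 75.8 and 87.9 in sham (log2 difference 2.23). Eif4ebp1, a brake on cap-dependent initiation, stood at 189.9, 198 and 222 in fetal and 66.7, 70.6 and 46.2 in sham (log2 difference 1.74). Eef1a2, the elongation factor form of adult muscle, fell, at 285, 439.5 and 368 in fetal and 991, 1160.2 and 1413 in sham (log2 difference -1.71, adjusted p = 0.00063), while Eef2 did not pass (log2 difference 0.09, adjusted p = 0.76).

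The mitochondrial ribosome went the other way, with 26 of 52 proteins lower and 1 higher (median -0.54). That count was 14 with equal totals, 15 with upper quartile scaling and 16 without sham replicate 2. Mrpl33 stood at 43.9, 44.2 and 44.2 in fetal and 143, 291 and 117 in sham (log2 difference -1.92, adjusted p = 0.008). Mrps23 stood at 38.9, 36.1 and 51.9 in fetal and 103.3, 223 and 131 in sham (log2 difference -1.77, adjusted p = 0.0026). Sham replicate 2 was highest in both.

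Of 28 proteasome genes 9 fell (32.1%) and 2 rose (7.1%), against 23.1% and 22.4% of all loci. Those lower included the regulatory ATPase Psmc5 (log2 difference -1.02, adjusted p = 0.0035) and Psmb7 (log2 difference -0.99, adjusted p = 0.0012). Both differences were smaller than those of the immunoproteasome, and neither gene was called with reference transcripts only.

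For some functions a pair of related genes allows the exchange of isoforms to be read within a library, as the share of the first gene in the sum of both. Both members carried a symbol in 9 of 35 pairs listed. Rpl3, the general ribosomal protein L3, stood at 899.7, 665 and 558 in fetal and 237, 141 and 132 in sham (log2 difference 2.08, adjusted p = 0.00052), against its muscle form Rpl3l at 0.124, 0.168 and 0.129 in fetal and 362, 457 and 555 in sham. Its share was 99.98% ± 0.00606 in fetal and 27.4% ± 10.7 in sham (SD, n = 3), and with reference transcripts only Rpl3l was not called.

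Among pairs of glycolytic isoforms some members differed in direction and others did not pass. Pfkp, the platelet phosphofructokinase, stood at 145, 280.2 and 217 in fetal and 27.7, 18.5 and 31.4 in sham (log2 difference 2.98). Pfkm, the muscle form, stood at 148, 175 and 153 in fetal and 517, 554 and 789 in sham (log2 difference -1.94). The share of Pfkp was 56.5% ± 6.34 in fetal and 4.05% ± 0.947 in sham. Pgam2, muscle phosphoglycerate mutase, stood at 21.96, 70.1 and 75.8 in fetal and 1488, 1570.4 and 607 in sham (log2 difference -4.49; -3.73 in replicates 2 and 3 alone). The locus listed as Pgam1 did not pass, at 182, 334 and 141 in fetal and 143, 158 and 229.8 in sham. Its share was 79.0% ± 12.5 in fetal and 15.1% ± 10.7 in sham. It spans only rn4 chr10:110468576-110469137, and whether it is the Pgam1 gene or a copy of it was not tested. Ldha, the lactate dehydrogenase subunit that favours lactate, did not pass (865, 826 and 807 in fetal and 844, 959 and 903 in sham; adjusted p = 0.58). Ldhb, the heart subunit, stood at 1204, 1022 and 832 in fetal and 5419, 4698 and 7239.8 in sham (log2 difference -2.50, adjusted p = 0.00018). The share of Ldha was 45.2% ± 3.75 in fetal and 13.8% ± 2.95 in sham.

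Of the lactate transporters, Slc16a3, the exporter of glycolytic cells, held 33.5% ± 0.516 of the sum with Slc16a1 in fetal and 0.702% ± 0.252 in sham, and Slc16a1 did not pass (202, 242 and 194 in fetal and 279, 220.4 and 205 in sham; adjusted p = 0.51). Pfkp and Slc16a3 were not called with reference transcripts only. Cox8b, the heart form of a complex IV subunit, stood at 152, 479.8 and 294 in fetal and 3473, 10372 and 2365 in sham (log2 difference -3.98, adjusted p = 0.00089; -3.36 without sham replicate 2), and the general Cox8a held a share of 77.7% ± 3.66 in fetal and 10.4% ± 4.01 in sham. Ezh2 held 76.8% ± 1.95 and 17.9% ± 8.66 of its sum with Ezh1.

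The groups overlapped in the share of Pygb among glycogen phosphorylases (22.2% ± 1.94 and 19.5% ± 2.44) and in that of Acta1 among sarcomeric actins (12.9% ± 5.56 and 7.05% ± 3.38).

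**Figure D5:**
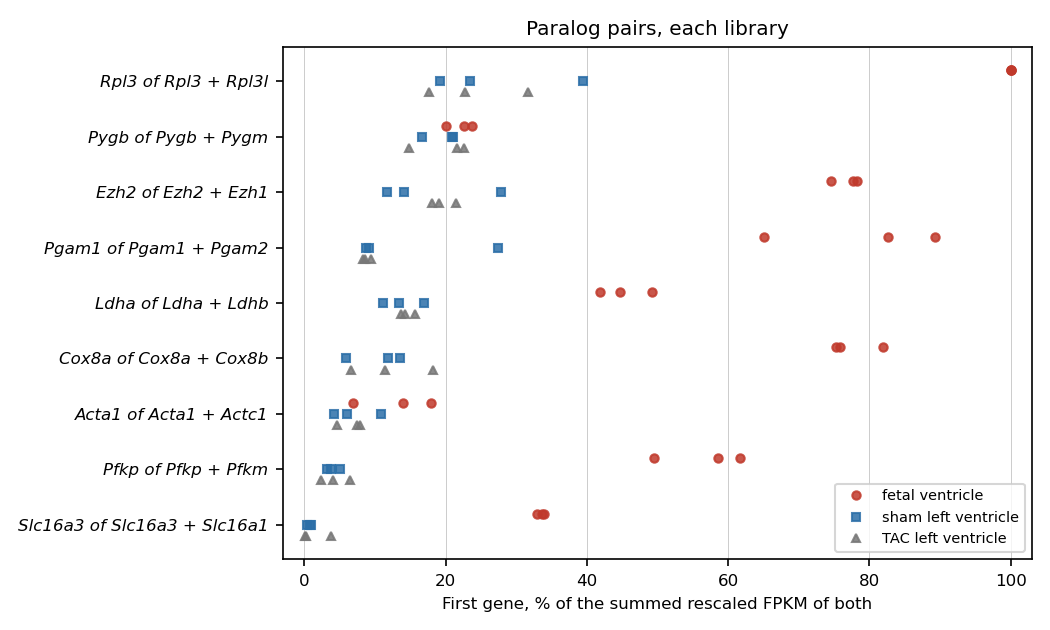
Share of the first gene in the summed rescaled FPKM of both genes of a pair, in percent, for each library of the 3 groups. Rpl3 lies near 100 in the fetal libraries and at 27.4% ± 10.7 in sham, and the pairs of Pygb and Acta1 overlap.

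Single reference transcripts were also tested, where a locus holds several. Of 13998 transcripts 1821 were called (13.0%), 658 higher (4.7%) and 1163 lower (8.31%), fewer than loci although about as many were tested. The count of higher transcripts was 334 without fetal replicate 3, 347 without fetal replicate 1, 403 without fetal replicate 2 and 272 in replicates 2 and 3 alone, where 597 were lower. Of 1496 loci with at least 2 tested transcripts, 11 held a called transcript in each direction, 7 of them with a symbol.

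Rcan2, an inhibitor of calcineurin, was one of them: ENSRNOT00000013956 stood at 44.0, 47.5 and 78.0 in fetal and 332, 414 and 359 in sham (-2.73, adjusted p = 0.00034), and ENSRNOT00000029593 at 24.99, 37.9 and 13.9 in fetal and listed at 0 in sham (adjusted p = 0.00045). The locus as a whole fell by 2.16, so the transcript of fetal ventricle is the smaller part of it in every fetal library.

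In Mlf1, myeloid leukemia factor 1, ENSRNOT00000017143 stood at 15.0, 32.3 and 48.5 in fetal and was listed at 0 in sham, and ENSRNOT00000017151 at 54.7, 54.3 and 25.3 in fetal and 138, 212 and 182 in sham (-2.02, adjusted p = 0.0058). In Palm, paralemmin of the cell membrane, ENSRNOT00000043152 stood at 18.5, 14.4 and 17.99 in fetal and 0, 0 and 6.02 in sham (3.22), against ENSRNOT00000013762 at 4.03, 11.2 and 7.59 and 37.9, 28.6 and 18.6 (-1.81). The Palm locus as a whole did not pass (log2 difference -0.28, adjusted p = 0.28), nor did that of the transporter gene Slc35a4 (log2 difference -0.39, adjusted p = 0.18), whose ENSRNOT00000003878 stood at 15.9, 5.27 and 14.2 in fetal and was listed at 0 in sham. A transcript listed at 0 in 1 group is an estimate by the assembler and was not checked on reads.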

How the data were processed

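Libraries of the TruSeq RNA kit, which does not mark strand, went through TopHat 1.3.1, Cufflinks 1.0.3 and Cuffdiff (no version given there) on the build rn4, per the submitters' processing notes. The deposited FPKM values of the authors carry a further constant in each library and were therefore rescaled here by the median of ratios over 13135 loci above 0 in every library, to a mean total of 1000000. Loci were joined through Ensembl transcript names and isoforms summed: 39492 reference transcripts gave 29329 loci, 24659 of at least 200 nt, of which 16534 have 1 symbol. Implied fragments, in units of 1e6, were 25.9, 23.2 and 32.5 in fetal, 20.6, 17.1 and 31.4 in sham and 9.95, 9.08 and 17.5 in TAC libraries. They were read from the deposited confidence bounds and are estimates.

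Loci with at least 1 in at least 3 libraries were fitted on log2(value + 1) in limma 3.58.1 (lmFit, eBayes with a trend, all 9 libraries, 6 residual degrees of freedom), with Benjamini-Hochberg adjustment over all 14139 loci. The pseudocount of 1 understates changes of low genes. p-values measure the spread between libraries, which may be technical. Fetal and sham libraries of the same number deviated together (correlations 0.458, 0.213 and 0.160 for numbers 1, 2 and 3), but so did fetal 2 with sham 3 (0.177) and fetal 3 with sham 2 (0.131). The values set number 1 apart and do not show that numbers 2 and 3 pair. The replicate block was run, and is given where it changes a result. Where the numbers come from beyond the titles is not stated. Other alternatives were scaling (upper quartile, equal totals), pseudocounts of 0.1 and 5, filters, only 6 libraries, no trend, library weights, each library left out, reference transcripts only, and replicates 2 and 3 alone.

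Gene lists, their genes and the pairs were chosen with earlier results of these data known. Lists are described by counts and medians without a test. Genes were named by rule: the 20 largest rises and falls among called loci with a mean of at least 20 in the higher group and separate groups, up to 8 called and 3 abundant uncalled members of each list, both members of pairs, and abundant markers. Cdc2, Cks2, Cdc20, Oxct1, Bcat2, Bcat1, Gatm, Acsl3, Acsl4, Mthfd2, Nid2, Irf7, Tap2, Gbp2, Ifit3, Rcan2, Mlf1, Slc35a4 and Palm were chosen after their values were seen. Some genes that the rule names are not reported here. Promoters are RefSeq sequences (GRCr8), and no coordinates were converted between it and rn4.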

Additional observations from a re-analysis of the deposited data

How the results depend on the processing

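Of 230 named genes called, 227 kept the call in every leave-one-out setting that tested them. The exceptions were Myl7, Nppa and Mlf1. Genes at 1 or more only in the 3 fetal libraries, such as Igf2bp1 and Sox11, were not tested with a fetal library left out. Leaving out 1 library gave 2254 to 2808 higher and 2707 to 2957 lower loci, and 334 to 563 higher and 794 to 896 lower transcripts. The replicate block changed no call of a named gene that had passed, let 3 others pass, and moved the count of cytosolic ribosomal proteins higher in fetal from 5 to 11. Reference transcripts only, which drops what each library assembled beside them, was the setting with the widest effect: 930 higher and 1125 lower loci, and 44 named genes no longer called without a change of sign. There Myom2 turned to 2.03 (adjusted p = 0.0014), Igf1r to -1.35, Elovl6 to -0.73, Idi1 to -1.10, Rxrg to 1.88, Klf9 to 2.31 and Slc16a12 to -1.54, the last 6 not called. Without fetal replicate 2, whose value is far above the others, Sox17 turned to -0.97 (adjusted p = 0.017) and Atp5a1 to -1.49 (adjusted p = 0.0036). Sox17 stood at 5.40 without fetal replicate 1 and Atp5a1 at 1.61 without fetal replicate 3. Replicates 2 and 3 alone gave 272 higher and 597 lower transcripts, an alternative chosen after seeing the data. Other causes were not tested. With implied depths of 17.1 to 32.5 times 1e6 fragments, genes that reached a value of 1 in fewer than 3 of the 9 libraries were not tested.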

Other observations

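Transporters of the cell membrane were divided, 15 higher (27.8%) and 21 lower (38.9%) of 54 tested (median -0.29), against 22.4% and 23.1% of all loci. The glutamine transporter Slc38a3 stood at 0.829, 0.817 and 0.809 in fetal and 47.2, 34.8 and 50.1 in sham (log2 difference -4.61, adjusted p = 1.1e-06), and its imprinted relative Slc38a4 at 13.9, 15.3 and 13.4 in fetal and 0.289, 0.567 and 1.198 in sham (log2 difference 3.21, adjusted p = 0.00017). The organic anion transporter Slco2b1 fell by 3.78 (not called with reference transcripts only), and the organic cation transporter Slc22a3 fell by 3.44.

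Of 42 axon guidance and adhesion genes 16 rose (38.1%) and 9 fell (21.4%), against 22.4% and 23.1% of all loci. The rises numbered 8 in replicates 2 and 3 alone and 10 without fetal replicate 1. Cdh3, placental cadherin, stood at 13.8, 3.38 and 4.65 in fetal and 0.38, 0 and 0.0601 in sham (log2 difference 2.66, adjusted p = 0.0017), and Bex2 at 7.62, 5.95 and 4.36 in fetal and 0.1, 0.143 and 0.0691 in sham (log2 difference 2.63). Sema7a, a membrane-anchored semaphorin, stood at 6.18, 7.93 and 6.77 in fetal and 46.7, 46.1 and 51.4 in sham (log2 difference -2.63, adjusted p = 4.0e-06). Pkp2, plakophilin of the intercalated disc, did not pass, at 128, 131 and 122 in fetal and 113, 109.8 and 116 in sham (log2 difference 0.17, adjusted p = 0.24).

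Of 40 heat shock proteins and chaperones tested, 6 rose (15.0%) and 9 fell (22.5%), against 22.4% and 23.1% of all loci. The rises numbered 16 with upper quartile scaling and 10 with equal totals. Hspb6, a small heat shock protein of muscle, stood at 39.5, 79.8 and 71.8 in fetal and 2133, 2008 and 2629 in sham (log2 difference -5.18, adjusted p = 5.3e-06). Hspb8, of the same family, stood at 63.3, 69.3 and 74.6 in fetal and 377, 411 and 365 in sham (log2 difference -2.46) and its partner Bag3 at 33.3, 48.3 and 55.7 in fetal and 228, 228 and 240.1 in sham (log2 difference -2.35). The inducible Hspa1a fell by 2.32. Tcp1, of the ring that folds actin and tubulin, rose, at 141, 196 and 115 in fetal and 59.9, 58.9 and 68.8 in sham (log2 difference 1.22; not called with reference transcripts only), and Hsp90ab1 did not pass (log2 difference 0.19, adjusted p = 0.59).

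TAC values of some adult-high genes lay in or near the range of the sham values. Mb stood at 21090.2, 21302 and 19161 in the TAC libraries and Rpl3l at 394, 561 and 443. The fetal-high Hif3a stood at 0.639, 0.861 and 0 and Postn at 18.5, 9.41 and 23.6 in TAC.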
